A study of Mus musculus with 12 samples.

Results

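The cytosolic ribosomal protein genes were taken as the protein-coding genes whose symbol is Rpl or Rps followed by a number, with an optional letter and an ending such as x or l, together with Rplp0, Rplp1, Rplp2 and Rpsa. Pseudogenes with a -ps name and the Rps6k kinases were left out. Of 41214 genes in the count table, 84 were members, 49 named for the large subunit, 3 for the stalk of the large subunit and 32 for the small subunit, and 80 of the 84 had enough counts to be tested. The RNA-seq libraries came from endothelial cells sorted from the ventricles of embryonic mouse hearts, after the atria and the aortic region were removed. Live cells negative for Ter119 and CD45 were gated on CD31.

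There were 4 groups. The 2 E17 coronary and 2 E17 endocardial libraries came from hearts collected at E17.5 from Nes-Gfp(Tg/0) embryos that also carried an inducible Cre, Nes-CreER(Tg/0), and a Tomato reporter allele, R26 (tom/+), and that received 0.1 ug of tamoxifen at E15.5. The 4 E13 coronary and 4 E13 endocardial libraries came from hearts collected at E13.5 from Nes-gfp (Tg/0) embryos without Cre, reporter or tamoxifen. All embryos thus carried GFP driven by nestin regulatory sequence, and GFP served to sort the populations. At E13 the coronary gate took CD31+/GFP+ cells and the endocardial gate took CD31+ cells with low GFP and high Emcn. At E17 the labels describe an arterial and capillary coronary gate (GFP+, low Emcn, Tomato+) and a venous one (low GFP, low Emcn, Tomato-), without naming the one used for these libraries. The E17 endocardial gate is described only as CD31+/GFP+. A batch label joins 1 coronary with 1 endocardial library, in batches 1 to 4 at E13 and batches 5 and 6 at E17, so stage, genotype, tamoxifen and batch cannot be told apart. The labels do not say whether replicates came from separate embryos or litters, so p-values measure only the spread between these libraries.

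Cytosolic ribosomes are built in the nucleolus from ribosomal RNA and ribosomal proteins, with the small subunit reading the mRNA and the large subunit joining the amino acids. Their mRNAs are among the most abundant of growing cells and usually begin with a 5' terminal oligopyrimidine (TOP) tract, through which mTOR signalling regulates their translation. A few ribosomal proteins have paralogs, and mammalian genomes hold many processed copies of these genes, made when their mRNAs were reverse transcribed into the genome.

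Total counts were 14973633 to 27360653 per library. Markers fitted the population labels in sum: the summed level of 8 endocardial genes was about 209 CPM (a gene's count relative to its library's TMM-scaled total) in E17 coronary, 6220 to 6518 CPM in E17 endocardial, 1301 to 1714 CPM in E13 coronary and 5070 to 5402 CPM in E13 endocardial libraries. Gene by gene the fit was partial at E13. All 8 were lower in coronary libraries at E17 (edgeR, adjusted p under 0.05). At E13, 5 were lower and 0 higher, and by library totals 5 were lower and 2 higher. The coronary libraries were less uniform than the endocardial ones in 9 fibroblast and other mesenchyme markers, which summed to 4812 and 2183 CPM in E17 coronary, 2453 and 2211 CPM in E17 endocardial, 2634, 5228, 6990 and 4848 CPM in E13 coronary and 1822 to 2053 CPM in E13 endocardial libraries. H19, an imprinted non-coding RNA, held 0.817% and 0.836% of counts in E17 coronary, 4.34% in each E17 endocardial, 1.97 to 2.33% in E13 coronary and 3.66 to 3.97% in E13 endocardial libraries.

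The sequences that carry the findings are those of the paralog pairs, since paralogs are among the members with the largest fold changes and differ in sequence from their relatives. Rps27l (gene at chr9:66946086-66949516, + strand) encodes a paralog of the small-subunit protein Rps27 and is known in human cells as a p53 target. Rps27 itself lies at chr3:90212522-90213651 on the - strand. Both coding sequences (GENCODE transcripts of build GRCm38), without their stop codon, are 252 bases long, and capitals mark the 60 aligned bases at which they differ, leaving 76.2% identity.
Rps27l: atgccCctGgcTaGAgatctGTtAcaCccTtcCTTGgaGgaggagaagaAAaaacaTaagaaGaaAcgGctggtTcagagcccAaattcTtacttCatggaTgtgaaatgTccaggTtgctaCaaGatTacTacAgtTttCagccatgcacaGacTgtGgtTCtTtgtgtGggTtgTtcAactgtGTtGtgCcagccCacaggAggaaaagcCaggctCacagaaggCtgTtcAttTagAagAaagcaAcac
Rps27: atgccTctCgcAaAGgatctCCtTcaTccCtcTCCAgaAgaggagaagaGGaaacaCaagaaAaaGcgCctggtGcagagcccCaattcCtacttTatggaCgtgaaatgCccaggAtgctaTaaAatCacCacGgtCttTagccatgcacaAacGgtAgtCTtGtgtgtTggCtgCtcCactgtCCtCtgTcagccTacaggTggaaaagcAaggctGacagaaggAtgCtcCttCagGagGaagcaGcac

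The other paralogs shared 87.7% (Rpl36al with Rpl36a), 66.9% (Rpl22l1 with Rpl22) and 53.0% (Rpl7l1 with Rpl7) of their aligned coding bases. The next sequences run from 40 bases before to 20 bases after the annotated start, on the gene's own strand in build GRCm38, credited to RefSeq, with the letters CTTTC in capitals. They are the windows of Rps27 (chr3:90213629-90213688, -), Rps27l (chr9:66946046-66946105, +), Rpl22 (chr4:152325686-152325745, +), Rpl22l1 (chr3:28805468-28805527, +), Rpl38 (chr11:114668540-114668599, +) and Rps6 (chr4:86857348-86857407, -).
Rps27: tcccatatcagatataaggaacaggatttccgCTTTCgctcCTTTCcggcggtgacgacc
Rps27l: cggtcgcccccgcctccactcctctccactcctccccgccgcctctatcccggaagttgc
Rpl22: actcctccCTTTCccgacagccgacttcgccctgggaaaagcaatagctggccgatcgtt
Rpl22l1: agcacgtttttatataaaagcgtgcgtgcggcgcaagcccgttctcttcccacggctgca
Rpl38: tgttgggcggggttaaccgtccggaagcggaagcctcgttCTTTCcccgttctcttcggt
Rps6: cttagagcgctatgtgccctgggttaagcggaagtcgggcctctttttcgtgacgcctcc

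CTTTC was searched as the simplest form of a pyrimidine tract opened by C, in the 25 bases on each side of the start. Of 84 members, 64 had a RefSeq start, with 76 start windows in all. The motif was in 25% of these 76 windows (19 windows), against 6.75% of 32851 windows of all genes and 6.67% of 75 windows of mitochondrial ribosomal protein genes. Its reverse complement GAAAG was in 9.21% of the members' windows and 6.10% of all windows. Among the printed windows, Rps27 and Rpl38 held the motif within the searched bases and Rps27l, Rpl22l1 and Rps6 did not, while the match of Rpl22 lies outside them. Only these exact letters were searched, at any place in the window, so the search does not measure TOP tracts. A window without the motif may still hold a pyrimidine tract, as that of Rps6 does at its start.

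As a share of all counts, the summed mRNA of the 84 genes differed between the populations more than between the stages. It made up 3.59% and 3.70% of all counts in E17 coronary, 3.28% and 3.04% in E17 endocardial, 3.88%, 3.80%, 3.69% and 3.84% in E13 coronary, and 3.27%, 3.44%, 3.34% and 3.25% in E13 endocardial libraries. In this share every coronary library was above every endocardial library at both stages. Group means were 3.64 ± 0.0766% (SD, n = 2) in E17 coronary and 3.16 ± 0.169% (n = 2) in E17 endocardial libraries, and 3.80 ± 0.0825% (n = 4) in E13 coronary and 3.33 ± 0.0863% (n = 4) in E13 endocardial libraries. With H19 counts left out of the totals, the means were 3.67%, 3.31%, 3.89% and 3.46% in the same 4 groups. In bulk samples, fewer cells of a type and less RNA per cell cannot be told apart.

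**Figure D1:**
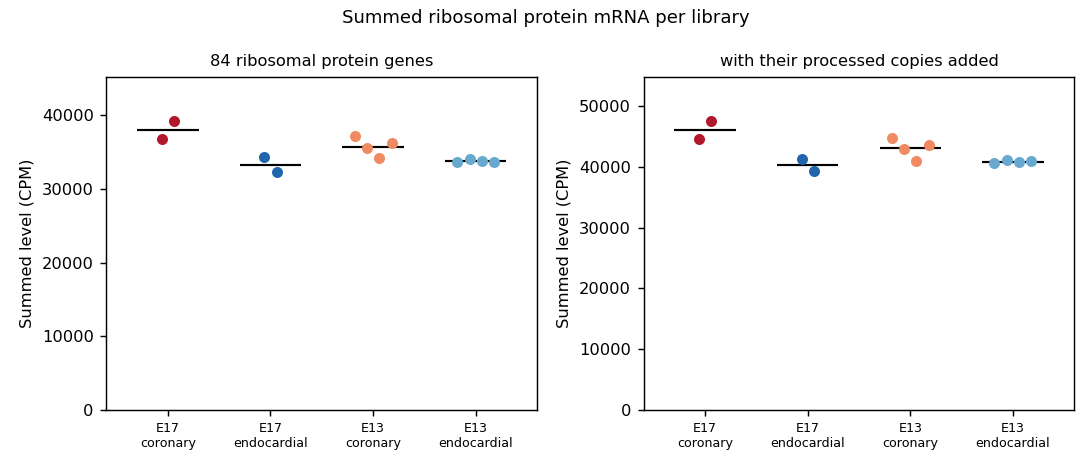
Summed level of the 84 ribosomal protein genes in each library, with TMM-scaled library sizes, for the deposited counts (left) and with the counts of processed copies added (right). Points are libraries and lines are group means. With copies added the E17 coronary libraries are at 44549 and 47676 CPM and the E17 endocardial ones at 41386 and 39431 CPM. The E13 coronary libraries are at 40945 to 44842 CPM and the E13 endocardial ones at 40680 to 41089 CPM, so they overlap.

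Between stages the sum depended on the scaling. On the TMM scale the coronary mean was 38085 CPM at E17 and 35768 CPM at E13, whereas as a share of all counts it was lower at E17, as given above. The E13 endocardial mean was 33761 CPM on the TMM scale. The E13 populations thus lay closer together on that scale than the coronary means of E13 and E17. TMM factors were 0.941 to 0.974 in E17 coronary and 1.05 to 1.08 in E13 coronary libraries. For the endocardial libraries the summed levels were 34346 and 32314 CPM at E17 and 33606 to 34052 CPM at E13, so the E17 values lie on both sides of the E13 ones.

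Per length, in the deposited counts, Rplp1 stood highest with a mean of 1347 CPM per kb of transcript over the 12 libraries, followed by Rplp0 with 1063 and Rps6 with 998 CPM per kb. With copies added the order was Rplp1 (1352), Rps6 (1180), Rpl41 (1114) and Rplp0 (1067 CPM per kb). Both stalk genes encode proteins of the stalk that recruits elongation factors, and Rps6 encodes the small-subunit protein phosphorylated by S6 kinases. Apart from Rps27, Rpl10l, Rpl3l and Rpl39l stood lowest, at 0, 0.0355 and 0.305 CPM per kb. Rpl3l is known as a paralog of striated muscle, and Rpl10l and Rpl39l as paralogs of the testis. These 3 genes had 0, 12 and 55 counts over all 12 libraries and were not tested.

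Rps27 was the fourth untested gene, with 0 counts in all libraries. Its reads were assigned to Rps27rt on chromosome 9, a copy whose transcript is 100% identical over the aligned bases and which held 77622 counts. Such copies touched many members. By sequence or name, 781 entries of the table were copies of 80 members, 563 of them with a count, and together they held 16.4 to 18.1% of the members' and copies' counts in each library. For 12 members the copies held more of the summed count than the gene itself: 100% for Rps27, 97.1% for Rps12, 95.5% for Rpl5, 92.4% for Rpl12, 86.9% for Rpl27a and 81.8% for Rpl27 were the highest shares.

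Rps12, a small-subunit gene, shows what this does to a value. Its deposited levels were 0.0233 and 2.35 CPM in E17 coronary, 0.00164 and 17.2 CPM in E17 endocardial, 67.1, 0, 0 and 44.3 CPM in E13 coronary, and 35.3, 0, 6.19 and 35.3 CPM in E13 endocardial libraries. With its copies added, mainly Rps12-ps3 on chromosome 19, the levels were 640 and 650 CPM in E17 coronary, 633 and 594 CPM in E17 endocardial, 574 to 638 CPM in E13 coronary and 546 to 577 CPM in E13 endocardial libraries. The scatter of the deposited values within each group is therefore absent from the sum. The deposited E17 minus E13 log2 fold change in coronary libraries was -4.49, and that of the sum was 0.08, neither past the threshold (edgeR adjusted p = 0.172 for the deposited counts). Fold changes below are given for the deposited counts unless the sum with copies is named, and each call that the copies change is stated. The sum keeps reads of a copy that may be transcribed itself.

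**Figure D2:**
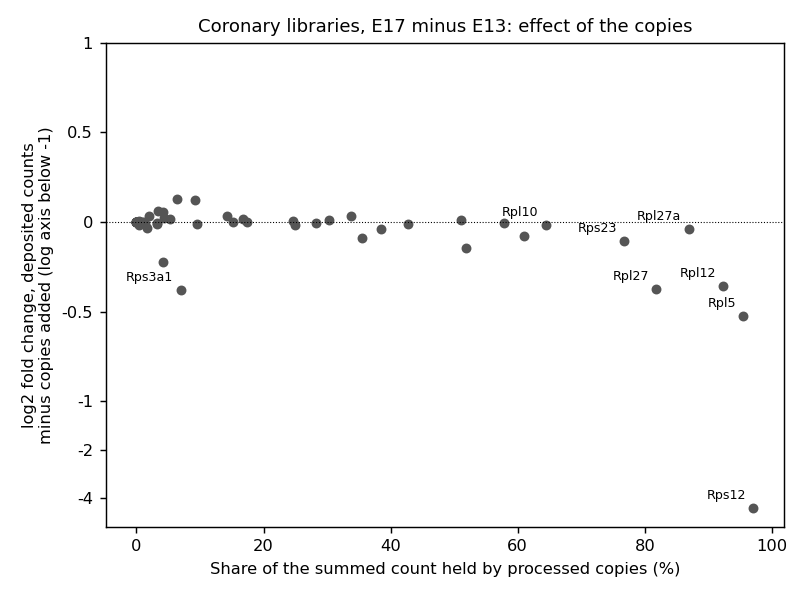
For each member tested, the difference between its log2 fold change with deposited counts and with processed copies added (E17 minus E13, coronary libraries), against the share of its summed count held by copies, in percent. The axis is logarithmic below -1. Most members with few copies lie near 0, with Rps3a1 and Rpl34 among the exceptions. Rps12, Rpl5, Rpl12 and Rpl27 lie well below 0.

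At E17, ribosomal protein genes were mostly higher in coronary than in endocardial cells. Of 80 tested, 40 were higher and 1 was lower in coronary libraries (edgeR's quasi-likelihood test, Benjamini-Hochberg adjusted p under 0.05 over the 15171 genes tested). Of all genes tested, 26.5% were higher and 26.1% lower. The median log2 fold change of the 80 was 0.19, a 1.14-fold difference, and that of all genes -0.01. With copies added, 47 of 81 were higher and 1 lower, against 26.7% and 26.2% of all genes. By library totals in place of TMM, 43 of 80 were higher and 1 lower, against 27.2% and 25.3%. All 40 genes higher in the deposited counts were among the 47. They came from both subunits, 27 of 46 large-subunit, 18 of 32 small-subunit and 2 of 3 stalk genes.

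The largest difference was that of Rpl18, a large-subunit gene, at 484 and 561 CPM in E17 coronary and 387 and 394 CPM in E17 endocardial libraries, a log2 fold change of 0.42 ± 0.073 (SE, edgeR adjusted p = 4.11e-04). Reads of Sphk2 on the opposite strand cannot be separated from it, but Sphk2 held 6309 counts against 102719 of Rpl18. Both coronary libraries were above both endocardial ones. Rplp0, the core protein of the stalk, had 1545 and 1735 CPM in E17 coronary and 1262 and 1291 CPM in E17 endocardial libraries, a log2 fold change of 0.36 ± 0.072 (edgeR adjusted p = 0.00108). Rpl32, a large-subunit gene, had 583 and 638 CPM in E17 coronary and 489 and 465 CPM in E17 endocardial libraries, a log2 fold change of 0.36 ± 0.062 (edgeR adjusted p = 4.28e-04). Cand2 overlaps Rpl32 on the opposite strand and held 14519 counts against its 121444. The paralogs were also among the largest rises. Rpl36al had 120 and 131 CPM in E17 coronary and 97.5 and 97.2 CPM in E17 endocardial libraries (0.37 ± 0.068, edgeR adjusted p = 6.06e-04). Rpl7l1 had 86.8 and 87.7 CPM in E17 coronary and 69.7 and 66.1 CPM in E17 endocardial libraries (0.36 ± 0.055, edgeR adjusted p = 1.32e-04). Each of these 5 stayed past the threshold when any 1 of the 12 libraries was left out.

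Rplp1 was the exception. The partner of Rplp2 on the stalk, it had 639 and 660 CPM in E17 coronary and 737 and 723 CPM in E17 endocardial libraries, and was lower in coronary libraries (log2 fold change -0.17 ± 0.058, edgeR adjusted p = 0.0282). Rplp2 was higher (0.20 ± 0.058, edgeR adjusted p = 0.0133), with 354 and 377 CPM in E17 coronary and 333 and 305 CPM in E17 endocardial libraries. The call on Rplp1 was lost without each of the 4 E17 libraries (edgeR adjusted p = 0.0620 to 0.171) and with DESeq2's size factors (adjusted p = 0.0547), with the direction kept.

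The size of the E17 difference rested on the replicate pairs unequally. Within batch 5 the median log2 ratio of the 80 genes was 0.09 and within batch 6 it was 0.28, against -0.01 and -0.02 for all genes. In both batches, 61 of 80 were higher in the coronary library, against 40.9% of all genes. In 57 of 80 both coronary libraries were above both endocardial ones, and in 2 of 80 both were below, against 37.3% and 38.7% of all genes. Without E17 coronary replicate 2 the calls numbered 23 in place of 41, and without E17 endocardial replicate 2 they numbered 22; of all genes, 41.2% and 43.6% were called in these fits and 52.6% with all libraries. Proliferation markers moved with the same contrast: 10 of them summed to 1768 to 1809 CPM in E17 coronary and 476 to 661 CPM in E17 endocardial libraries. Mural markers (8 genes) summed to 799 to 1000 CPM in E17 coronary and 158 to 162 CPM in E17 endocardial libraries, with 8 of 8 and 7 of 8 genes reaching 1 CPM. Their part in the result was not tested.

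At E13 the same comparison gave a smaller median than at E17 on the TMM scale, and larger differences for a few genes. By library totals the members' median was 0.21 at both stages, but that of all genes was 0.09 at E13 and -0.0005 at E17. Set against all genes, the members' E13 difference was thus the smaller one. The choice of scale does not bear on this, since a change of scaling moves all genes by about the same amount. In coronary libraries 32 of 80 were higher and 2 lower than in endocardial libraries, against 30.1% higher and 29.9% lower among all genes. The members' share of rises lies somewhat above that of all genes on this scale, and their share of falls well below it. The median log2 fold change was 0.10, and that of all genes -0.02. With library totals in place of TMM, 58 were higher and 1 lower, against 37.7% and 22.4% of all genes, with medians of 0.21 for the members and 0.09 for all genes. Called in all 3 scalings were the same 32 rises, and of the falls Rps6. With copies added, 33 of 81 were higher and 4 lower, against 30.3% and 30.1% of all genes, and 29 of the rises were common to both counts.

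Rps2, a small-subunit protein near the mRNA entry site, showed the largest rise. It had 376, 232, 258 and 286 CPM in E13 coronary and 216, 158, 165 and 166 CPM in E13 endocardial libraries. The groups did not overlap, and replicate 1 was the highest of each. The log2 fold change was 0.71 ± 0.136 (SE, edgeR adjusted p = 7.05e-04), and 0.69 with copies added. Rps27l followed with 72.8, 71.6, 67.7 and 68.9 CPM in E13 coronary and 41.1, 45.2, 45.6 and 45.2 CPM in E13 endocardial libraries, a log2 fold change of 0.67 ± 0.049 (edgeR adjusted p = 2.48e-07). Rpl36al, the autosomal paralog of X-linked Rpl36a, had 143 to 157 CPM in E13 coronary and 97.8 to 107 CPM in E13 endocardial libraries (0.56 ± 0.047, edgeR adjusted p = 8.79e-07). For both paralogs the gap between the groups was wider than the range within either.

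Rpl41, which encodes the very small basic protein of the large subunit, had 622 to 658 CPM in E13 coronary and 424 to 471 CPM in E13 endocardial libraries, a log2 fold change of 0.53 ± 0.048 (edgeR adjusted p = 1.40e-06). Rpl38, needed in mouse embryos for translation of some Hox mRNAs, had 177 to 197 CPM in E13 coronary and 142 to 152 CPM in E13 endocardial libraries (0.39 ± 0.046, edgeR adjusted p = 1.47e-05). These calls held with copies added and without any single library. By contrast, 3 large-subunit genes with most of their counts in copies changed size: Rpl12 was at 0.50 with deposited counts and 0.21 with copies added, Rpl27 at 0.47 and 0.09, and Rpl5 at 0.25 and 0.01. Rpl12 passed in both (edgeR adjusted p = 1.02e-04 and 6.14e-04), whereas Rpl27 (adjusted p = 0.00782 and 0.0977) and Rpl5 (adjusted p = 0.0383 and 0.835) passed only with deposited counts.

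With copies added, 4 genes were lower in E13 coronary cells, 3 of the small subunit and 1 of the large. Rps6 had 798, 774, 790 and 766 CPM in E13 coronary and 956, 994, 893 and 886 CPM in E13 endocardial libraries, without overlap (log2 fold change -0.25 ± 0.050, edgeR adjusted p = 8.50e-04). Rps7, whose protein can bind Mdm2, had 528 to 603 CPM in E13 coronary and 614 to 676 CPM in E13 endocardial libraries (-0.22 ± 0.058, edgeR adjusted p = 0.00571), a call that was lost with library totals (-0.11, adjusted p = 0.0697). Rps27, measured only through its copies, had 286, 280, 290 and 289 CPM in E13 coronary and 356, 359, 344 and 355 CPM in E13 endocardial libraries, a log2 fold change of -0.31 ± 0.044 (edgeR adjusted p = 7.53e-05). The large-subunit gene Rpl39 was at -0.10 with copies added (edgeR adjusted p = 0.0494), and at -0.09 with deposited counts and 0.02 with library totals, not called in either. Its call with copies was lost in most of the fits that left out 1 library (edgeR adjusted p = 0.0526 to 0.260). At E17, Rps6 (-0.12, edgeR adjusted p = 0.165) and Rps27 with copies (-0.06, adjusted p = 0.426) did not pass.

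**Figure D3:**
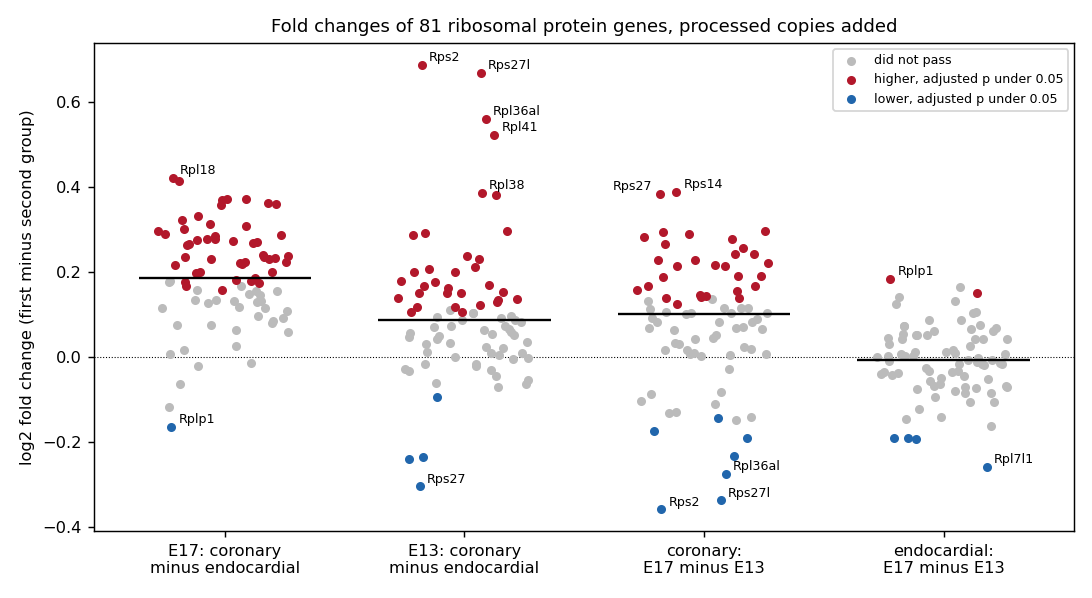
log2 fold changes of 81 ribosomal protein genes, with processed copies added, in 4 comparisons; each point is a gene, the black line is the median, and red and blue mark genes higher or lower with adjusted p under 0.05. The E17 population comparison sits above 0 almost as a whole (47 higher, 1 lower), the E13 one has a small group near 0.6 with Rps2, Rps27l, Rpl36al and Rpl41, and the endocardial stage comparison centres on 0; the scale is TMM, and by library totals the calls of the coronary stage comparison lie mostly below 0 (4 higher, 23 lower, deposited counts).

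Around the E13 threshold, Rpl5 (0.25, edgeR adjusted p = 0.0383) and Rplp1 (0.11, 0.0408) were the last to pass, and Rplp2 (0.10, 0.0628), Rps16 (0.10, 0.0667) and Rpl11 (0.17, 0.0684) the first not to. Within batches 1 to 4 the median log2 ratio of the members was 0.15, 0.08, 0.04 and 0.13, against -0.01 to -0.03 for all genes. In all 4 batches 43 of 80 were higher in the coronary library, against 33.5% of all genes. In 34 of 80 all 4 coronary libraries were above all 4 endocardial ones, and in 2 all were below, against 27.7% and 27.9%. The fibroblast and other mesenchyme markers given above were higher in coronary libraries in 8 of 9 genes, none of them at 0, and proliferation markers summed to 1692 to 1820 CPM in E13 coronary and 762 to 1083 CPM in E13 endocardial libraries. Mural markers were higher in 6 of 8 genes, and summed to 347 to 638 CPM in E13 coronary and 182 to 201 CPM in E13 endocardial libraries. Their part in the result was not tested. Pan-endothelial markers (10 genes) summed to 5573 to 7584 CPM in E13 coronary and 8439 to 9386 CPM in E13 endocardial libraries.

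The paralogs and the genes they resemble passed in different comparisons. Rpl36a, on the X chromosome, had 275 and 315 CPM in E17 coronary, 302 and 286 CPM in E17 endocardial, 270 to 289 CPM in E13 coronary and 277 to 302 CPM in E13 endocardial libraries, with all 4 groups overlapping. It passed in no comparison, whereas Rpl36al was higher in coronary cells at both stages. Rpl22, whose protein is known in mouse to repress Rpl22l1, had 291 and 296 CPM in E17 coronary, 304 and 274 CPM in E17 endocardial, 261 to 294 CPM in E13 coronary and 277 to 299 CPM in E13 endocardial libraries, and passed in none either. Rpl22l1 had 85.4 and 98.4 CPM in E17 coronary, 78.1 and 90.6 CPM in E17 endocardial, 94.9 to 108 CPM in E13 coronary and 74.8 to 85.9 CPM in E13 endocardial libraries. It was higher in coronary cells at E13 (log2 fold change 0.37 ± 0.068, edgeR adjusted p = 4.81e-04). At E17 its difference was 0.12 ± 0.097 (edgeR adjusted p = 0.306), and the groups overlapped. Rpl7l1 was higher in coronary cells at both stages (0.30 ± 0.038 at E13, edgeR adjusted p = 2.85e-05), while Rpl7 passed at E17 (0.31 ± 0.072, edgeR adjusted p = 0.00326) and not at E13 (0.02 ± 0.051, edgeR adjusted p = 0.721). The difference between a paralog and its relative was not itself tested. Rps4l, the other name-matched relative of Rps4x, is a pseudogene in the annotation and not a member.

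**Figure D4:**
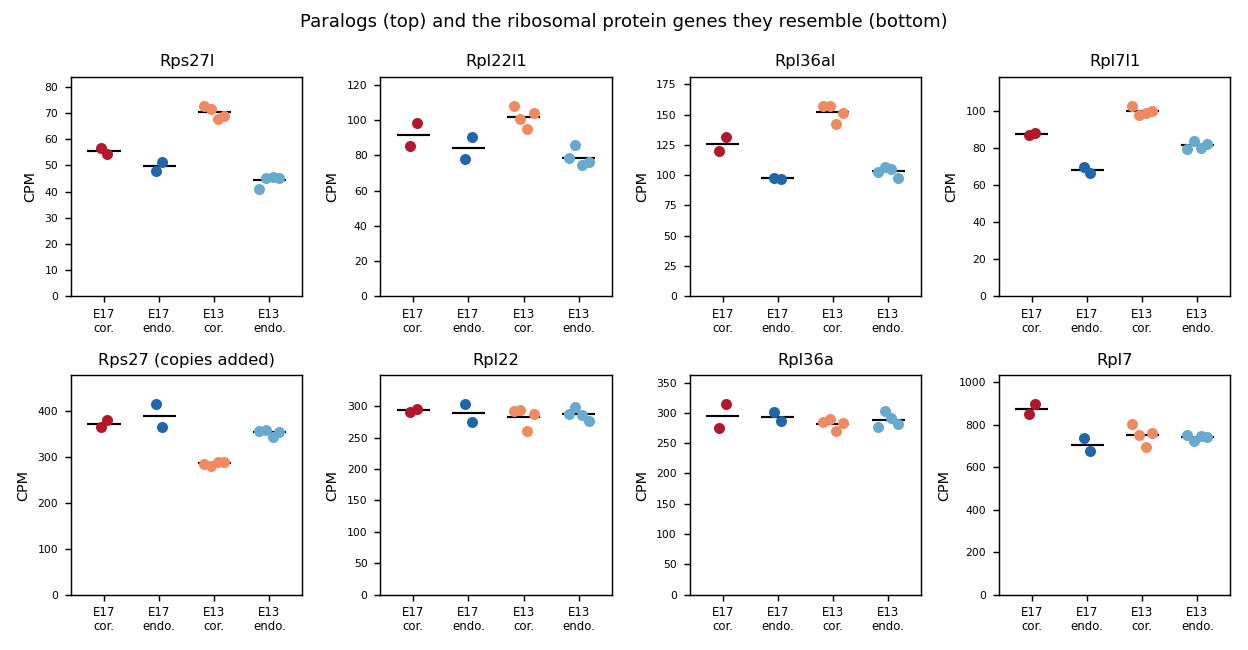
CPM of 4 paralogs (top) and the ribosomal protein genes they resemble (bottom) in each library, with group means as lines; Rps27 is shown with its processed copies added. Rps27l is highest in the E13 coronary libraries (67.7 to 72.8 CPM), where Rps27 is lowest (280 to 290 CPM), while Rpl22 and Rpl36a overlap across the 4 groups.

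In coronary cells, E17 against E13, the list split. On the TMM scale 24 of 80 genes were higher and 9 lower at E17, against 24.6% and 25.6% of all genes, with medians of 0.08 for the members and -0.02 for all genes, but by library totals 4 were higher and 23 lower, against 17% and 36%, with medians of -0.07 and -0.17. A change of scaling moves the log2 fold changes of all genes by about the same amount. The members' place above the median gene is therefore the same result on both scales, not a separate check. Called in the same direction under TMM, DESeq2's size factors and library totals were 4 rises, among them Rpl35a, Rps14 and Rps4x, and 9 falls (Rpl12, Rpl27, Rpl35, Rpl36al, Rpl41, Rpl5, Rpl7l1, Rps27l and Rpsa). With copies added, on the TMM scale, 30 of 81 were higher and 7 lower, against 24.7% and 25.7% of all genes. Of the falls Rpl36al, Rpl41, Rpl7l1, Rps27l and Rpsa were called with and without copies. Rpl27, Rpl12, Rpl5 and Rpl35 were not called once copies were added, at -0.13, -0.11, 0.10 and -0.10.

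Rps14, a small-subunit gene that is haploinsufficient in the human 5q- syndrome, had 666 and 754 CPM in E17 coronary and 564, 522, 510 and 574 CPM in E13 coronary libraries. The log2 fold change was 0.39 ± 0.064 (edgeR adjusted p = 3.30e-04), and 0.23 with library totals (adjusted p = 0.00422). Ndst1 overlaps it on the opposite strand and held 43887 counts against its 133122, so its reads cannot be told apart from those of Rps14 where they overlap. Rps4x, X-linked, had 961 and 1009 CPM in E17 coronary and 765 to 853 CPM in E13 coronary libraries (0.28 ± 0.056, edgeR adjusted p = 0.00119). Rpl35a had 403 and 426 CPM in E17 coronary and 327 to 358 CPM in E13 coronary libraries (0.28 ± 0.055, edgeR adjusted p = 0.00115). None of these 3 overlapped between the stages. Rps27 with copies had 366 and 380 CPM in E17 coronary libraries, also above the E13 values given above (0.38 ± 0.054, edgeR adjusted p = 8.2e-05). Rps7 and Rpl23, at 0.30 and 0.29, were also among the largest rises but did not pass with library totals (0.15 and 0.14, adjusted p = 0.0550 and 0.0718).

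Among the falls called both with and without copies, Rps27l and Rpl36al were the largest. Rps27l had 56.7 and 54.4 CPM in E17 coronary libraries, below all 4 E13 coronary values (log2 fold change -0.34 ± 0.060, edgeR adjusted p = 5.52e-04). Rpl36al had 120 and 131 CPM in E17 coronary libraries, below the E13 range of 143 to 157 CPM (-0.28 ± 0.059, edgeR adjusted p = 0.00193). Rpl41 had 528 and 568 CPM in E17 coronary libraries, against 622 to 658 CPM at E13 (-0.23 ± 0.059, edgeR adjusted p = 0.00595). Rpl7l1 was at 86.8 and 87.7 CPM in E17 coronary and 97.5 to 103 CPM in E13 coronary libraries (-0.19 ± 0.047, edgeR adjusted p = 0.00462). Rpsa, which encodes the small-subunit protein also known as the laminin receptor, was at 484 and 505 CPM in E17 coronary and 531 to 567 CPM in E13 coronary libraries (-0.16 ± 0.048, edgeR adjusted p = 0.0138). Without E17 coronary replicate 1 the calls on Rpl41 (adjusted p = 0.0864) and Rpsa (adjusted p = 0.105) were lost. Rps2 was lower at E17 only in the sum with copies (-0.36, edgeR adjusted p = 0.0103), with 252 and 251 CPM in E17 coronary and 291 to 383 CPM in E13 coronary libraries.

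Without E17 coronary replicate 2, 15 in place of 33 members were called in this comparison (35.2% in place of 50.1% of all genes), and Rps7 was among those lost (adjusted p = 0.0605). Both E17 coronary libraries were above all E13 ones in 29 of 80 members and below all of them in 12, against 29.7% and 30.8% of all genes. The capillary markers (8 genes) summed to 6879 to 9021 CPM in E17 coronary and 925 to 1800 CPM in E13 coronary libraries, pan-endothelial markers to 11017 to 12377 CPM in E17 coronary and 5573 to 7584 CPM in E13 coronary libraries, and fibroblast and other mesenchyme markers to 4812 and 2183 CPM in E17 coronary and 2634 to 6990 CPM in E13 coronary libraries. Their part in the result was not tested.

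In endocardial cells the ribosomal protein genes moved little between the stages. Of 80, 2 were higher and 3 lower at E17, against 16.2% and 15.6% of all genes, with medians of -0.01 and 0.00. With copies added, 2 of 81 were higher and 4 lower, against 16.3% and 15.7%. By library totals 1 of 80 was higher and 9 lower, against 13.8% and 19.6%. Both E17 endocardial libraries were above all E13 ones in 8 of 80 members and below all in 13, against 26.7% and 25.9% of all genes.

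Rplp1 had 737 and 723 CPM in E17 endocardial and 627 to 647 CPM in E13 endocardial libraries, without overlap, and rose (log2 fold change 0.19 ± 0.050, edgeR adjusted p = 0.0110). Rps21, a small-subunit gene, was at 254 and 246 CPM in E17 endocardial and 218 to 230 CPM in E13 endocardial libraries (0.15 ± 0.047, edgeR adjusted p = 0.0287), a call that was lost with library totals (0.10, adjusted p = 0.156). Rpl7l1 fell, with 69.7 and 66.1 CPM in E17 endocardial and 79.2 to 83.8 CPM in E13 endocardial libraries (-0.26 ± 0.048, edgeR adjusted p = 0.00142). Rpsa fell as well, with 415 and 423 CPM in E17 endocardial and 463 to 490 CPM in E13 endocardial libraries (-0.19 ± 0.048, edgeR adjusted p = 0.00891). For Rps3a1 the deposited counts gave -0.32 ± 0.087 (edgeR adjusted p = 0.0139), and the sum with its copies gave 0.04, not called, so its fall rests on how reads were divided. Only Rpl7l1 stayed past the threshold in all 12 fits that left out 1 library. Without E17 endocardial replicate 1 the calls on Rplp1, Rps21 and Rpsa were lost (adjusted p = 0.0893, 0.204 and 0.0776). Without E17 endocardial replicate 2 those on Rplp1, Rps21 and Rps3a1 were lost (0.0542, 0.0777 and 0.199), and 2 calls were made in all. Without E13 endocardial replicate 1 the call on Rps21 was lost (0.0699).

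The coronary minus endocardial difference itself changed with stage for 11 members, 8 with a higher and 3 with a lower value at E17 than at E13, against 16.2% and 16.5% of all genes. The median of the 80 was 0.09 and that of all genes 0.00. By library totals 2 were higher and 8 lower, against 11.7% and 19.9%, with medians of -0.005 for the members and -0.10 for all genes. Here too a change of scaling moves all genes by about the same amount. The members' place above the median gene is the same result on both scales, not a separate check. Rps27l changed most: its log2 difference was 0.16 at E17 and 0.67 at E13, a change of -0.50 ± 0.085 (edgeR adjusted p = 7.48e-04). Rps27l stood at 56.7 and 54.4 CPM in E17 coronary and 47.8 and 51.4 CPM in E17 endocardial libraries, where it did not pass (edgeR adjusted p = 0.0653). Rpl41 changed by -0.36 ± 0.082 (edgeR adjusted p = 0.00569), with 528 and 568 CPM in E17 coronary and 497 and 474 CPM in E17 endocardial libraries. Rplp1 changed by -0.27 ± 0.071 (edgeR adjusted p = 0.0110) and was called lower in coronary cells at E17 and higher at E13. Its E13 call was lost in 7 of the 12 fits that left out 1 library (edgeR adjusted p = 0.0512 to 0.100), and its E17 call as given above. Rps4x changed by 0.32 ± 0.080 (edgeR adjusted p = 0.00928), with 830 and 783 CPM in E17 endocardial libraries below both E17 coronary values, and 803 to 849 CPM in E13 endocardial libraries within the E13 coronary range. These 4 stayed past the threshold without any single library and under all 3 scalings.

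The difference also rose for Rps14 (0.33 ± 0.092, edgeR adjusted p = 0.0152) and for Rpl28, Rpl29, Rpl23, Rpl7 and Rplp0, between 0.28 and 0.29. Of these 6, Rps14 alone passed with library totals too. Ube2s overlaps Rpl28 on the opposite strand and held 25010 counts against its 151643. Without E17 coronary replicate 2, and likewise without E17 endocardial replicate 2, all 6 were lost and 4 members were called, while 22.6% and 25.6% of all genes were called, in place of 32.7%. With copies added 12 rose and 3 fell, against 16.4% and 16.5% of all genes, and Rps27 was among the rises (0.24 ± 0.077, edgeR adjusted p = 0.0298).

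The other parts of the translation machinery were described by lists, whose members are set against the same shares of all genes. Higher and lower in coronary cells were 30.1% and 29.9% of all genes at E13, and 26.5% and 26.1% at E17. Between E13 and E17 in coronary cells, 24.6% rose and 25.6% fell on the TMM scale, and 17% and 36% by library totals. Ribosome biogenesis factors (59 tested) were higher in coronary cells in 45 and lower in 1 at E13 (median log2 fold change 0.44), and higher in 21 and lower in 2 at E17 (median 0.16). In coronary cells 43 of the 59 fell and 2 rose between E13 and E17 on the TMM scale (median -0.46), and 51 fell and 1 rose by library totals. The endocardial libraries moved the same way, with 23 lower and 3 higher at E17 on the TMM scale (median -0.17). Of all genes, 15.6% were lower and 16.2% higher there. Npm1, a nucleolar chaperone of ribosome assembly, averaged 544 ± 3.23 CPM in E17 coronary (SD, n = 2), 459 ± 4.47 CPM in E17 endocardial (n = 2), 942 ± 61.8 CPM in E13 coronary (n = 4) and 610 ± 29.6 CPM in E13 endocardial libraries (n = 4). Its fall in coronary cells was -0.79 ± 0.068 (edgeR adjusted p = 1.65e-06). Nhp2, of the box H/ACA particles that modify ribosomal RNA, averaged 40.4 CPM in E17 coronary, 25.1 CPM in E17 endocardial, 68.0 CPM in E13 coronary and 33.6 CPM in E13 endocardial libraries, and was higher in coronary cells at E13 by 1.01 ± 0.068 on the log2 scale (edgeR adjusted p = 1.22e-07). Mybbp1a, a nucleolar Myb-binding protein, fell in coronary cells by 0.78 on the log2 scale (edgeR adjusted p = 1.28e-07). Ltv1, a factor of small-subunit maturation, went the other way between the populations at E17 (-0.79 ± 0.065, edgeR adjusted p = 9.17e-07).

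**Figure D5:**
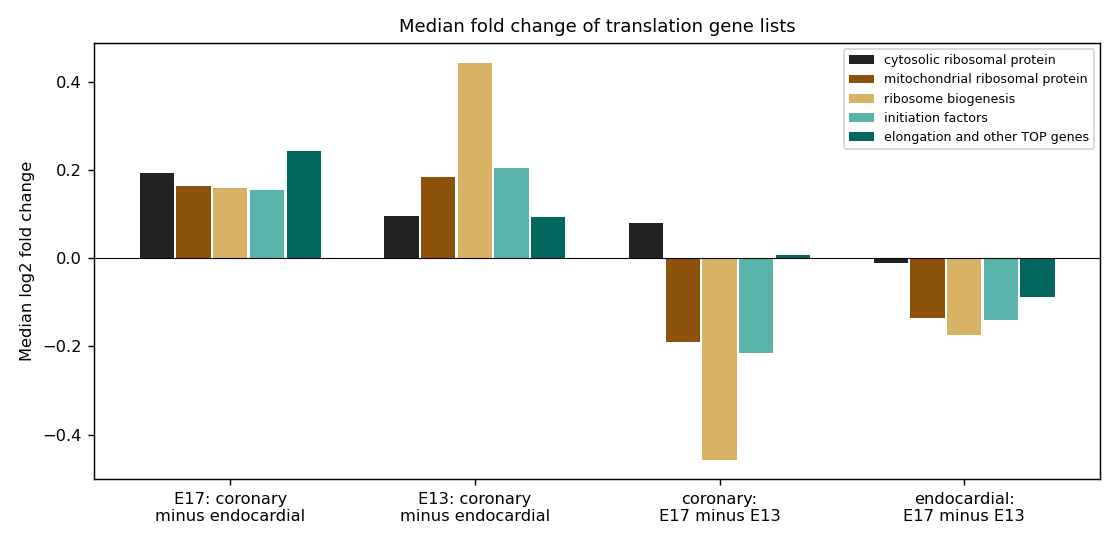
Median log2 fold change of the cytosolic ribosomal protein genes and 4 other translation gene lists in 4 comparisons (deposited counts, TMM scale). All 5 medians are above 0 in both population comparisons, with ribosome biogenesis at 0.44 at E13; in coronary cells between stages the ribosomal protein genes are at 0.08 and ribosome biogenesis at -0.46, and by library totals these medians are -0.07 and -0.61.

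Mitochondrial ribosomal protein genes (77 tested) have products that form the separate ribosome of mitochondria. At E13, 44 were higher and 3 lower in coronary cells, against 30.1% and 29.9% of all genes. At E17, 24 were higher and 4 lower, against 26.5% and 26.1%. In coronary cells 32 fell and 2 rose between the stages on the TMM scale, against 25.6% and 24.6%. In endocardial cells 21 fell and 0 rose, against 15.6% and 16.2%. Mrpl17 averaged 60.1 ± 0.675 CPM in E17 coronary and 32.0 ± 3.01 CPM in E17 endocardial libraries (log2 fold change 0.91 ± 0.116, edgeR adjusted p = 3.38e-05), and Mrps5 was lower, at 42.3 ± 0.0317 and 62.8 ± 2.55 CPM (-0.57 ± 0.057, edgeR adjusted p = 4.24e-06). Initiation factors (31 tested) were higher in coronary cells in 21 and lower in 2 at E13, and higher in 14 and lower in 3 at E17, against the same shares. The helicase genes Eif4a1 and Eif4a2 moved in opposite directions: Eif4a1 averaged 746 CPM in E17 coronary and 482 CPM in E17 endocardial libraries (0.63 ± 0.082, edgeR adjusted p = 4.16e-05), and Eif4a2 averaged 255 CPM in E17 coronary and 599 CPM in E17 endocardial libraries (-1.23 ± 0.068, edgeR adjusted p = 3.18e-08).

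Elongation factors and other TOP genes (16 tested) were higher in coronary cells in 11 and lower in 1 at E17, against 26.5% and 26.1% of all genes. At E13, 7 were higher and 2 lower, against 30.1% and 29.9%. In coronary cells between the stages 7 rose and 5 fell on the TMM scale, and 2 rose and 8 fell by library totals. In endocardial cells 0 rose and 6 fell on the TMM scale, against 16.2% and 15.6% of all genes. Eef1a1, which brings aminoacyl-tRNA to the ribosome, averaged 9046 ± 507 CPM in E17 coronary, 7344 ± 152 CPM in E17 endocardial, 7353 ± 289 CPM in E13 coronary and 7649 ± 136 CPM in E13 endocardial libraries. Its coronary rise was 0.30 ± 0.052 on the TMM scale (edgeR adjusted p = 4.29e-04). Rack1, a scaffold on the small subunit, was higher in E17 coronary than in E17 endocardial libraries (0.35 ± 0.069, edgeR adjusted p = 9.83e-04), whereas Fau, whose product joins a ubiquitin-like protein to a ribosomal protein, passed in no comparison.

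Growth control genes of the Myc and mTOR pathways (24 tested) gave no common direction, with 5 higher and 6 lower in coronary cells at E17 and 8 higher and 10 lower at E13. Mycn averaged 43.2 ± 1.21 CPM in E17 coronary, 13.8 ± 1.09 CPM in E17 endocardial, 29.9 ± 3.06 CPM in E13 coronary and 13.8 ± 1.78 CPM in E13 endocardial libraries, and was higher in coronary cells at both stages (1.65 ± 0.141 at E17 and 1.11 ± 0.098 at E13). Of 10 genes of the ribosome stress response, 5 were higher and 2 lower in E13 coronary than in E13 endocardial libraries, against 30.1% and 29.9% of all genes. At E17, 2 were higher and 3 lower, against 26.5% and 26.1%. Cdkn1a, a p53 target that blocks cyclin-dependent kinases, averaged 51.4 ± 9.93 CPM in E13 coronary and 9.83 ± 0.901 CPM in E13 endocardial libraries (2.39 ± 0.150, edgeR adjusted p = 7.26e-08). A link between its level and that of Rps27l was not tested.

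Over the 12 libraries, the lowest Pearson correlations of a member's log2 CPM with the mean of all members were -0.56 for Rps6, -0.43 for Rpl39 and -0.10 for Rps7. Among 9465 genes with a mean of at least 10 CPM that are not members, the profiles most like the mean were those of Tomm22 (0.920), Acsl4 (0.915), Pabpc1 (0.914), Slc16a13 (0.914) and Uqcrfs1 (0.914). These are descriptions over libraries that share stage, population and scaling.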

How the data were processed

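RNA-seq was made from 12 libraries of sorted heart endothelium. Per the labels' protocols, RNA was isolated with a PicoPure kit, 200 ng were used, polyadenylated RNA was selected, and libraries were made with NEBNext Ultra, a kit without strand marking, for single-read Illumina sequencing. The authors deposited a table of expected counts, of which 18.3% are not whole. RSEM 1.2.3, cutadapt 1.3, CASAVA 1.8.2 and build GRCm38 were used per the submitters' processing notes, and what each did and with which settings is not given in the sources used here. Reads that match several genes are divided by estimation in RSEM, which bears on genes with near-identical copies.

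Expected counts were rounded and genes kept by filterByExpr (minimum count 10, total 15), leaving 15171. Differences were tested in edgeR 4.0.16 (R 4.3.3), by quasi-likelihood and with TMM. All 12 libraries entered 1 model with a mean for each of the 4 groups, so that the groups of 2 libraries borrow the spread of all. It left 8 residual degrees of freedom, and the common coefficient of biological variation was 0.126. P-values were adjusted by Benjamini-Hochberg over all genes tested, with a threshold of 0.05. DESeq2 1.42.0 was an alternative. The standard error of a log2 fold change is its size divided by the root of its F statistic. The fit was tested on simulated data. Total counts of 14973633 to 27360653 per library set the counting precision.

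Copies were table entries aligned by BLAST 2.17.0 to a member's transcript at 90% identity or more over at least 80% of the copy or of the member, or with a -ps name (42 entries by name alone). In a separate fit their counts were added to the member. Coordinates and gene types come from GENCODE M21 and start windows from RefSeq (GRCm38.p6). Named genes are, per comparison, the 6 largest rises and falls that passed with at least 10 CPM, all members where 5 or fewer were called, the paralog pairs, the stalk genes, Rpsa, the members highest and lowest per length, those not tested, and those nearest the E13 threshold, some of which are not reported here; of other lists, at most the 4 members of lowest adjusted p. Fau, Eef1a1 and genes named for a changed call were added after their values were seen. The members and lists were chosen with earlier results of these data known.

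The batch label pairs libraries. Across 9481 genes, which are not independent, the deviations of batch partners from their group means correlated at 0.377, 0.682, 0.367 and 0.478 at E13, against -0.508 to 0.439 for other E13 pairs. At E17 the value was 0.380 for partners and, with 2 libraries a group, by construction -0.380 otherwise.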

Additional observations from a re-analysis of the deposited data

Results flagged for a closer look

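Within the groups of 4 libraries, 70 tests compared the gap of the extreme library to its neighbour with the range of its group, and chance flags about 1 in 20 such groups. In 4 cases the gap exceeded Dixon's critical value. For Rpl18 in E13 coronary libraries it was 0.906 of the range, with 457 CPM in replicate 3 against 499 to 503 CPM. For Rps2 in E13 endocardial libraries it was 0.868, with 216 CPM in replicate 1 against 158 to 166 CPM. For Rps27l in E13 endocardial libraries it was 0.914, with 41.1 CPM in replicate 1 against 45.2 to 45.6 CPM. For Rps7 in E13 endocardial libraries it was 0.959, with 614 CPM in replicate 2 against 674 to 676 CPM. With copies added, Rps2 was at 221, 203, 192 and 186 CPM in the 4 E13 endocardial libraries.

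The coronary minus endocardial difference was tested for a change between E17 and E13, and 11 members passed (edgeR's quasi-likelihood test, adjusted p under 0.05). The change was negative for Rps27l (-0.50), Rpl41 (-0.36) and Rplp1 (-0.27). It was positive for others, among them Rplp0 (0.28), Rpl29 (0.28), Rpl7 (0.28), Rpl23 (0.29), Rpl28 (0.29), Rps4x (0.32) and Rps14 (0.33).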

How the results depend on the processing

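Counts of called members were recomputed under other scalings, filters and tools, and without each library. At E13, 59 of 80 members differed between the populations with total count scaling, in place of 34, while the share of all genes called was 60.1% in place of 60.0%. Between stages in endocardial cells the 5 calls became 8 with a length offset, 3 with no filter on low counts and 10 with total count scaling (32.0%, 17.6% and 33.4% of all genes, in place of 31.8%). The stage difference had 19 calls with DESeq2 and 23 with the length offset, in place of 11 (32.5% and 32.9% of all genes, in place of 32.7%). The coronary stage comparison kept a like number of calls with total count scaling, but 4 higher and 23 lower.

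Leaving out 1 library gave 29 to 41 calls at E13, 22 to 46 at E17, 2 to 6 between stages in endocardial and 15 to 34 in coronary cells, and 4 to 16 for the stage difference. The shares of all genes called in these fits were 55.6 to 58.9%, 41.2 to 53.9%, 18.7 to 34.3%, 35.2 to 50.8% and 22.6 to 35.2%. The difference in the summed share was 0.451 to 0.515 percentage points at E13, 0.360 to 0.599 at E17, -0.281 to -0.0424 for E17 minus E13 in endocardial and -0.214 to -0.105 in coronary cells. Of the calls of the whole set of libraries, 28 of 34 at E13, 21 of 41 at E17, 12 of 33 (coronary stage), 1 of 5 (endocardial stage) and 4 of 11 (stage difference) held in each of the 12 fits.

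With the batch as a replicate block, 31 were higher and 2 lower at E13, 41 and 1 at E17, and 7 and 4 in the stage difference, against 30.2% and 29.9%, 26.6% and 25.8%, and 16.7% and 16.1% of all genes. The stage comparisons cannot carry the block, since each batch holds 1 stage. Added after seeing the data were the total count scaling, the block with copies added, the summed shares without H19 counts and the fits that leave out a library with copies added.

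Of the named values that passed the test in either fit, those that turned direction were Rps3a1 in endocardial cells (0.0424 with copies added), Rpl5 in coronary cells (0.10 with copies added) and Rplp2 in coronary cells (-0.14 with total count scaling, adjusted p = 0.0291), all E17 minus E13. Reads assigned to copies caused the change in the first 2 by construction. For the other changes the cause was not tested. Of the single-gene values under alternatives, 2029 stayed on their side of the threshold, 103 lost the call, 47 gained one and 3 turned. Among those that stayed, some that passed in neither fit changed sign, as Rps12 did.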
